A study of Homo sapiens with 10 samples.

Results

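H3K27ac was followed at the regions assigned to 9 lung lineage genes, the transcription factor genes NKX2-1, FOXA1, FOXA2, GATA6 and CEBPA and the marker genes SFTA3, SFTPB, NAPSA and HOPX, in drug-tolerant persister cells (DTPs). The members were all rows of the annotated count table whose gene symbol is 1 of these names, which gave 39 of 67387 annotated regions (169637 regions were counted in all) and 8 of the 9 genes. FOXA1 had no annotated region. H3K27ac, the acetylation of lysine 27 of histone H3 that marks active promoters and enhancers, was profiled by chromatin immunoprecipitation and sequencing in H1975, an established human lung adenocarcinoma line with mutant EGFR. The DMSO group was grown without drug for 21 days and then in DMSO for 3 days. The osimertinib DTP group was kept in osimertinib, an EGFR inhibitor, at 500 nM for 24 days. The osimertinib DTP + AZD5153 group (the AZD5153 group below) was kept in osimertinib at 500 nM for 21 days and then given AZD5153, a bivalent inhibitor of BET bromodomain proteins, at 150 nM for 3 days. The labels do not say whether osimertinib was continued in those last 3 days. Each group held 3 libraries, described as biological replicates of this 1 line, and 1 pooled input library was counted as well.

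In the developing and adult lung, NKX2-1, FOXA1, FOXA2, GATA6 and CEBPA act together on genes of the distal airway epithelium. NKX2-1 (TTF-1) is a homeodomain factor used to identify lung adenocarcinoma, FOXA1 and FOXA2 are forkhead factors that open chromatin in endoderm, GATA6 is a zinc-finger factor of endoderm, and CEBPA is a leucine-zipper factor of alveolar type 2 cell maturation. SFTPB encodes surfactant protein B, NAPSA encodes napsin A, an aspartic protease that processes the precursor of surfactant protein B, and SFTA3 is a surfactant-associated gene that lies next to NKX2-1. HOPX encodes an atypical homeodomain protein without DNA binding of its own and marks alveolar type 1 cells.

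Total counts ranged from 6263443 to 10463351 per H3K27ac library. The third AZD5153 library had the lowest total and stood apart: over all regions, its Spearman correlation with the other libraries of its group was 0.445 and 0.367, against 0.888 between those. Member values that rest on it are given with and without it. The input library, with a lower total of 1870885, had 3 to 23 counts in the member regions. Input counts are given raw and are not scaled to the H3K27ac totals. Levels below are CPM, the counts of a region of 502 bp relative to the library's total count after TMM scaling, as edgeR gives them. They are averages over bulk chromatin, in which fewer cells with the mark and less mark per cell cannot be told apart. Of the defining markers of a distal airway lineage, SFTA3 held regions up to the percentile 99.5 of all tested regions by mean CPM, NKX2-1 up to 94.0, NAPSA up to 90.3 and SFTPB 1 region at 63.5. Among 9 markers of other cell types, promoter regions were present for CD68, CD79A, COL1A1 and COL1A2. Distal regions were present for PECAM1 and VWF, with a summed CPM of 16.4 to 144 and of 24.2 to 65.7 over the libraries.

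The member regions were called about as often as regions in general. In osimertinib DTP against DMSO, 4 of 39 regions (10.3%) passed edgeR's quasi-likelihood test at an adjusted p of 0.05, against 10.7% of all 157919 regions tested. Of these, 1 was higher (5.58% of all regions were) and 3 were lower (5.13% of all). In the AZD5153 group against DMSO, 6 of 39 (15.4%) were called, 3 higher and 3 lower, against 18.1% of all regions, with 9.05% higher and 9.01% lower. Between the drug-treated groups, none of 39 was called, and neither was any region of the whole table (0%, higher or lower). In that comparison 7011 regions had an unadjusted p under 0.05, of which none was a member region, and DESeq2 called 18 higher and 68 lower of all regions and no member. The 0 over the whole table depended on the setting. With library quality weights, in which the third AZD5153 library had the lowest weight (0.144), 2967 regions were called higher and 2822 lower, and no member. The number with an unadjusted p under 0.05 was then 39987, and it was 32441 without that library. The CPM of the 3 libraries of each group did not overlap in 16 member regions for osimertinib DTP against DMSO (39.1% of all regions did not), in 11 for the AZD5153 group against DMSO (33.4% of all) and in 2 for the AZD5153 group against osimertinib DTP (8.24% of all). The median log2 fold change of the 39 regions was -0.34, 0.21 and -0.24 in the comparisons of osimertinib DTP with DMSO, of the AZD5153 group with osimertinib DTP and of the AZD5153 group with DMSO, beside 0.15, 0.06 and 0.23 over all regions tested. Both comparisons with DMSO share the DMSO libraries. Leaving out 1 library moved these counts. For osimertinib DTP against DMSO, 2, 0 and 1 member regions were called without DMSO replicate 1, 2 and 3, 1 without each of the 3 osimertinib DTP libraries in turn, and 5, 9 and 11 without AZD5153 replicate 1, 2 and 3. For the AZD5153 group against DMSO, the numbers were 3, 2 and 2 without DMSO replicate 1, 2 and 3, 5 without each osimertinib DTP library in turn, and 4, 8 and 10 without AZD5153 replicate 1, 2 and 3. Without AZD5153 replicate 3, calls over all regions rose too, to 22898 higher and 20524 lower of 161758 for osimertinib DTP against DMSO.

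**Figure D1:**
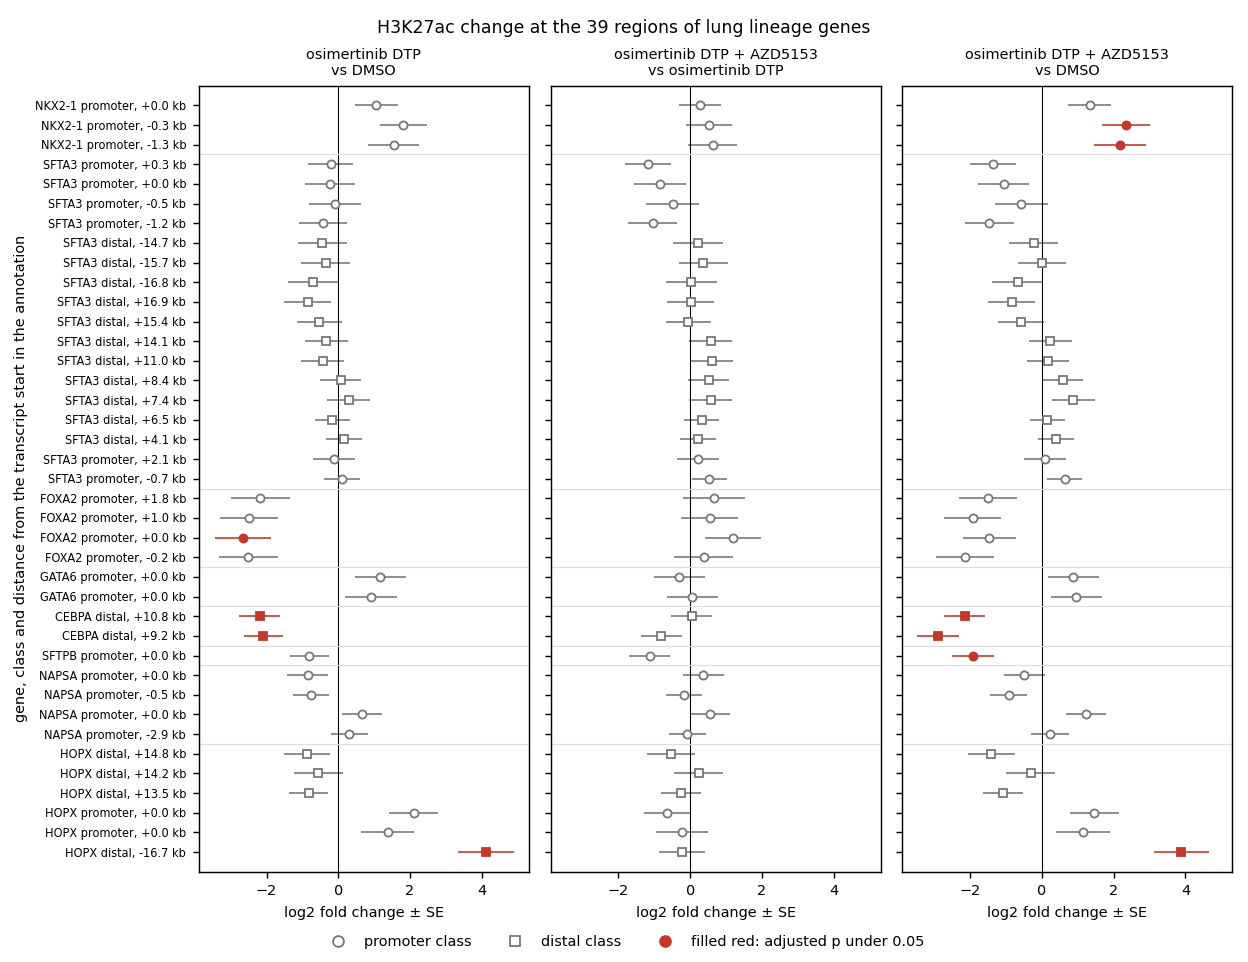
Log2 fold change of H3K27ac with its standard error (horizontal axis) at each of the 39 member regions (vertical axis, by gene, class and distance from the transcript start in the annotation), 1 panel per comparison, with 3 libraries per group. Filled red symbols are the 4, 0 and 6 regions past an adjusted p of 0.05, among them the CEBPA pair on the lower side and the HOPX region at -16716 bp on the higher side in both comparisons with DMSO.

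The calls fell on 5 genes. CEBPA lost H3K27ac at both of its regions in both comparisons with DMSO, and HOPX gained it at 1 upstream region in both. FOXA2 was lower at 1 of 4 regions in osimertinib DTP, NKX2-1 was higher at 2 of 3 regions and SFTPB was lower at its only region in the AZD5153 group. In this edgeR fit of all 9 libraries without weights, no region of SFTA3 (0 of 17), GATA6 (0 of 2) or NAPSA (0 of 4) was called in any comparison. Calls of SFTA3 regions under other settings are given below.

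NKX2-1 had 3 regions, all of the promoter class, which in the table means within 3 kb of a transcript start. RefSeq (GRCh38.p14) places NKX2-1 on the minus strand of chromosome 14 with a pair of start sites, and the upstream one lies 171 bp from the nearest member region. The 250 bases before each start are shown because the gain lay upstream of the first. Capitals mark matches on either strand to a short core of a factor's motif. The core used for NKX2 factors was CAAGTG and that for FOXA factors was TGTTTAC. The core used for GATA factors was AGATAA and that for C/EBP factors was TTGCNNAA, and TATAAA was searched as well.
NKX2-1 upstream start, chr14:36520233-36520482, minus strand: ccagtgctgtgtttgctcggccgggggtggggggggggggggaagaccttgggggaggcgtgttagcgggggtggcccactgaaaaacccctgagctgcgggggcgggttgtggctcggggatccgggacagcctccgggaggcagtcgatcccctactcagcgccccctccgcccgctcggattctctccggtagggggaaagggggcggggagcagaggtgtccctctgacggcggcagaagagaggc
NKX2-1 and SFTA3 shared start, chr14:36519557-36519806, minus strand: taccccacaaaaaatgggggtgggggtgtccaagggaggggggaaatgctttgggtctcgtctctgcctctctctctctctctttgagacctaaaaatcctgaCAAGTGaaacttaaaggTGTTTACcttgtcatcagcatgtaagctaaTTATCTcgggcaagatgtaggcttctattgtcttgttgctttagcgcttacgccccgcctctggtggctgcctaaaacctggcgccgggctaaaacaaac
The upstream sequence, of which a part lies in a member region, had a GC content of 70.8% and held none of these motifs. The sequence before the start shared with SFTA3 had a GC content of 49.6% and held 1 match each to the NKX2, FOXA and GATA motifs, and no counted region overlapped it. Of 34943 distinct promoters of the same length, 9.51% held the NKX2 motif, 2.98% the FOXA motif, 9.19% the GATA motif, 9.06% the C/EBP motif and 10.8% TATAAA. These are matches of letters only, not of binding.

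At the NKX2-1 region nearest the start (chr14:36520404-36520905), the CPM was 7.82, 11.8 and 15.0 under DMSO, 15.3, 38.97 and 17.9 in the osimertinib DTPs and 14.7, 19.3 and 53.5 in the AZD5153 libraries. Every osimertinib DTP library was above every DMSO library here, but the log2 fold change of 1.06 ± 0.60 (SE) was not past the threshold (adjusted p = 0.289), nor was 1.33 ± 0.60 in the AZD5153 group against DMSO (adjusted p = 0.138), which was 0.55 (adjusted p = 0.394) without the third AZD5153 library. At the next region upstream (chr14:36521498-36521999), the CPM was 1.89, 2.25 and 3.98 under DMSO, 7.68, 9.91 and 10.98 in the osimertinib DTPs and 6.95, 5.42 and 29.1 in the AZD5153 libraries. All 6 drug-treated libraries lay above all DMSO libraries. The region rose in the AZD5153 group against DMSO (log2 fold change 2.34 ± 0.67, adjusted p = 0.0236), whereas the value for osimertinib DTP against DMSO was 1.81 ± 0.66 (adjusted p = 0.0867). The region farthest upstream (chr14:36522476-36522977) also rose in the AZD5153 group (2.18 ± 0.72, adjusted p = 0.0431), with a CPM of 1.53, 1.02 and 2.59 under DMSO, 5.88, 5.23 and 3.99 in the osimertinib DTPs and 4.87, 1.85 and 17.1 in the AZD5153 libraries. There the second AZD5153 library lay within the DMSO range, and osimertinib DTP against DMSO was at 1.55 ± 0.71 (adjusted p = 0.175). Without the third AZD5153 library, these values in the AZD5153 group against DMSO became 1.18 (adjusted p = 0.0535) and 0.97 (adjusted p = 0.172), while in osimertinib DTP against DMSO both regions then passed, at 1.81 (adjusted p = 0.00347) and 1.54 (adjusted p = 0.0232). The first call was also lost without DMSO replicate 1 (adjusted p = 0.104), 2 (0.116) or 3 (0.062), and the second without any 1 of the DMSO (0.135, 0.181 and 0.0861) or osimertinib DTP libraries (0.0593, 0.0649 and 0.0619). Without the second AZD5153 library, the first region also passed in osimertinib DTP against DMSO (1.81, adjusted p = 0.0496). Over the gene itself, chr14:36517047-36517548 and chr14:36518580-36519081 were assigned to NKX2-1-AS1 and are not members. Their CPM was 20.7 to 73.2 and 34.7 to 165, and the groups overlapped. Against DMSO they stood at 0.12 and 0.49 in osimertinib DTP (adjusted p = 0.928 and 0.669). In the AZD5153 group they stood at 0.44 and 0.88 (adjusted p = 0.626 and 0.329).

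SFTA3 held the most regions of any member, 6 of the promoter class and 11 in introns, in a stretch that runs downstream from NKX2-1. Its promoter region with the highest level (chr14:36514516-36515017) had a CPM of 29.2, 46.8 and 42.9 under DMSO, 33.3, 57.8 and 36.4 in the osimertinib DTPs and 41.2, 52.0 and 91.2 in the AZD5153 libraries. The groups overlapped. The log2 fold changes were 0.10 ± 0.49 for osimertinib DTP against DMSO (adjusted p = 0.933) and 0.63 ± 0.49 for the AZD5153 group against DMSO (adjusted p = 0.412), the latter 0.23 without the third AZD5153 library. Its strongest intronic region (chr14:36505305-36505806) had 23.6, 42.7 and 38.5 CPM under DMSO, 24.5, 73.0 and 31.0 in the osimertinib DTPs and 28.1, 39.8 and 124 in the AZD5153 libraries, again with overlap (adjusted p = 0.825 and 0.348 against DMSO). In the AZD5153 group against DMSO it stood at 0.87, and at -0.05 without the third library. Over the 17 regions the log2 fold change ran from -0.86 to 0.29 in osimertinib DTP against DMSO and from -1.48 to 0.87 in the AZD5153 group against DMSO, or from -1.10 to 0.63 without AZD5153 replicate 3.

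The third AZD5153 library had an uneven profile over SFTA3. It was the highest of its group at the promoter region and the intronic region above, and it was at 0.767 to 3.64 CPM in 11 other SFTA3 regions. The 4 promoter-class regions farthest from NKX2-1 (chr14:36476847-36479660) lie 33876 to 36188 bp from the nearest RefSeq start of SFTA3, at the starts of short transcripts in the annotation. At the first of these (chr14:36476847-36477348) the CPM was 5.31, 16.2 and 12.2 under DMSO, 8.44, 6.47 and 14.3 in the osimertinib DTPs and 2.28, 8.31 and 2.30 in the AZD5153 libraries. Its value in the AZD5153 group against DMSO was -1.37 ± 0.65 (adjusted p = 0.151), and it was -2.30 (adjusted p = 0.0335) without the second AZD5153 library but -1.10 (adjusted p = 0.14) without the third. The region at chr14:36479159-36479660 had 17.8, 41.4 and 31.4 CPM under DMSO, 14.6, 26.9 and 25.6 in the osimertinib DTPs and 6.56, 23.4 and 2.30 in the AZD5153 libraries. It stood at -1.48 ± 0.68 (adjusted p = 0.145), at -2.74 (adjusted p = 0.0127) without the second AZD5153 library and at -1.02 (adjusted p = 0.144) without the third. With library quality weights, both regions were called lower in the AZD5153 group against DMSO (-1.54, adjusted p = 0.0074, and -1.56, adjusted p = 0.0035). So was the region at chr14:36477569-36478070 (-1.63, adjusted p = 0.022), while that at chr14:36478512-36479013 was not (-0.65, adjusted p = 0.314).

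**Figure D2:**
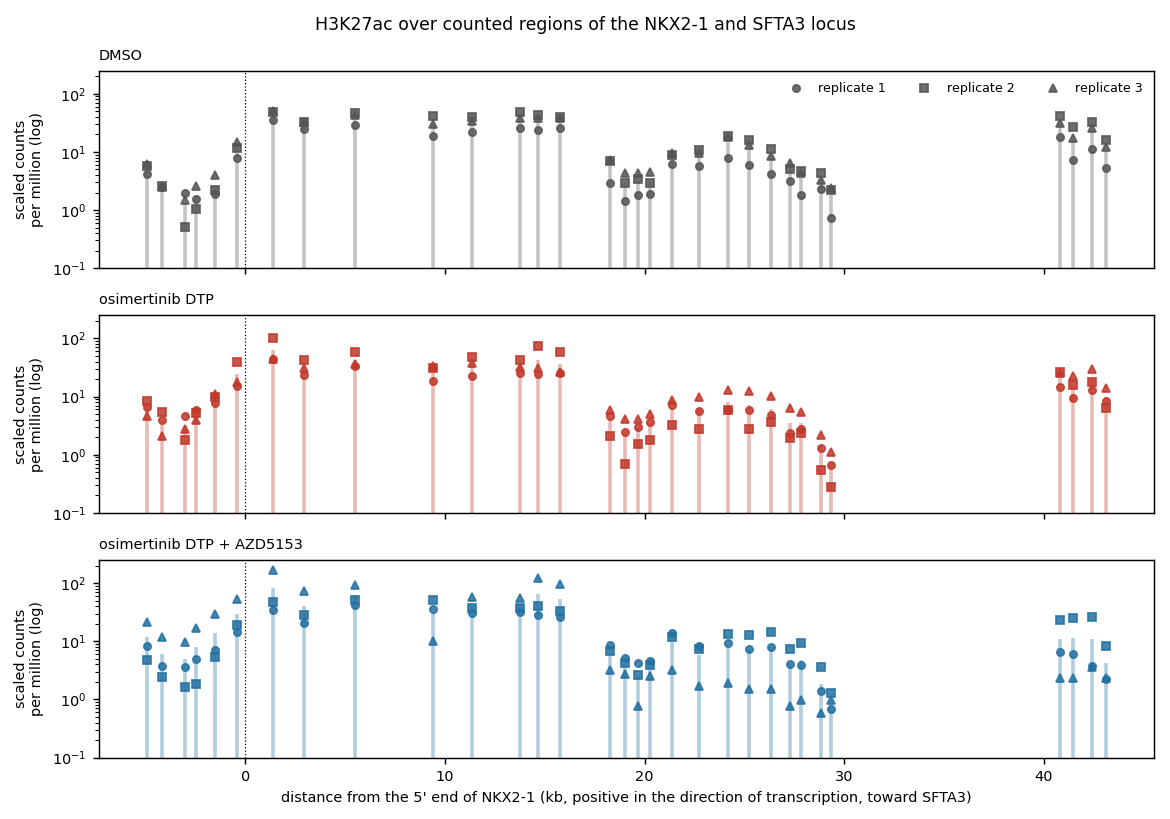
Scaled CPM (vertical log axis) of every counted region of the NKX2-1 and SFTA3 locus, whether or not it was assigned to a gene, against the distance in kb from the 5′ end of NKX2-1, positive in the direction of transcription. Points are libraries and bars reach the group mean (n = 3). Upstream of the start, to the left of the dotted line, the osimertinib DTP points at the 3 NKX2-1 regions sit above the DMSO points, and at most regions beyond 20 kb the third AZD5153 library (triangles) is below the rest of its group, though not at the farthest, where it is at 2.30 and the first at 2.28.

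FOXA2 had 4 regions, all of the promoter class, and its signal was low in both drug-treated groups apart from 1 library. At the region with the highest level (chr20:22582916-22583417), the CPM was 16.1, 20.6 and 26.2 under DMSO, 6.16, 3.44 and 1.60 in the osimertinib DTPs and 1.79, 1.04 and 13.99 in the AZD5153 libraries. All drug-treated libraries were below all DMSO libraries, with the third AZD5153 library closest to DMSO. The log2 fold changes were -2.48 ± 0.81 for osimertinib DTP against DMSO (adjusted p = 0.0563) and -1.94 ± 0.80 for the AZD5153 group against DMSO (adjusted p = 0.0998). The region called the start region here (chr20:22583952-22584453) lies 10 bp from a transcript start in the annotation. The RefSeq 5′ end of FOXA2, at 22585490, is nearer to chr20:22584681-22585182, which was not called in osimertinib DTP (adjusted p = 0.0561). The start region had 5.40, 9.52 and 9.46 CPM under DMSO, 2.09, 1.10 and 0.60 in the osimertinib DTPs and 1.89, 0.46 and 6.71 in the AZD5153 libraries. H3K27ac fell there in osimertinib DTP (-2.66 ± 0.78, adjusted p = 0.0363). In the AZD5153 group the third library lay within the DMSO range there (-1.47 ± 0.74, adjusted p = 0.182). The other regions stood at -2.18 and -2.51 in osimertinib DTP and at -1.51 and -2.14 in the AZD5153 group, and none was called.

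The FOXA2 calls moved with the libraries included. Without the third AZD5153 library, all 4 regions were called in osimertinib DTP against DMSO, at -2.67 to -2.19 (adjusted p = 0.000568 to 0.00604), and in the AZD5153 group against DMSO, at -3.88 to -2.76 (adjusted p = 6.65e-05 to 0.00198). The strongest region also passed in osimertinib DTP against DMSO without AZD5153 replicate 1 (adjusted p = 0.042) or 2 (0.0133). The call at the start region was lost without any 1 of the DMSO (adjusted p = 0.0588, 0.143 and 0.119) or osimertinib DTP libraries (0.0631, 0.149 and 0.173), and under the replicate block (-2.64, adjusted p = 0.0681). FOXA1, the paralog of FOXA2, had no annotated region, and within 100 kb of the gene only 2 of all counted regions were present, with 2 to 39 counts per library.

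GATA6 had 2 promoter regions, at which the groups overlapped. At the higher one (chr18:22170884-22171385), the CPM was 8.54, 2.56 and 2.29 under DMSO, 7.30, 14.3 and 3.69 in the osimertinib DTPs and 5.26, 3.58 and 17.6 in the AZD5153 libraries. The first DMSO library was above 2 of 3 AZD5153 libraries. The log2 fold changes were 0.91 ± 0.72 and 0.96 ± 0.72 against DMSO (adjusted p = 0.475 and 0.391), and without the third AZD5153 library the second of these was -0.03. At the start region (chr18:22168980-22169481) they were 1.17 ± 0.71 and 0.87 ± 0.72 (adjusted p = 0.327 and 0.439), the second being 0.19 (adjusted p = 0.838) without the third AZD5153 library. A region assigned to the antisense gene GATA6-AS1 adjoins these, as those assigned to NKX2-1-AS1 adjoin the NKX2-1 regions, and a histone mark does not tell the strands apart.

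CEBPA had 2 regions, both distal intergenic, 10834 and 9184 bp downstream of the nearest transcript start in the annotation. The annotated table had no region at its promoter, but the full table had 2 (chr19:33302146-33302647 and chr19:33302810-33303311), which are not members. The first had too few counts to be tested. The second had counts of 32, 22 and 24 under DMSO, 23, 86 and 20 in the osimertinib DTPs and 17, 20 and 63 in the AZD5153 libraries, which overlapped, at 1.07 (adjusted p = 0.435) and 1.06 (adjusted p = 0.39) against DMSO. At the 2 member regions H3K27ac fell in both drug-treated groups. At chr19:33291199-33291700, the CPM was 8.90, 9.11 and 10.6 under DMSO, 2.18, 2.75 and 1.298 in the osimertinib DTPs and 1.29, 2.31 and 2.87 in the AZD5153 libraries. At chr19:33292849-33293350, it was 7.19, 12.1 and 10.4 under DMSO, 2.46, 2.48 and 2.00 in the osimertinib DTPs and 0.80, 1.85 and 1.34 in the AZD5153 libraries. In both regions all 6 drug-treated libraries lay below all DMSO libraries. The first region changed by -2.20 ± 0.56 (adjusted p = 0.0204) in osimertinib DTP and by -2.16 ± 0.57 (adjusted p = 0.0152) in the AZD5153 group, and the second by -2.09 ± 0.55 (adjusted p = 0.0235) and -2.89 ± 0.58 (adjusted p = 0.00394). With 1 library left out, the log2 fold change of the first region stayed between -2.41 and -1.87 over both comparisons, but its call in osimertinib DTP was lost without any 1 of the 6 libraries compared (adjusted p = 0.0524 to 0.128), and its call in the AZD5153 group without DMSO replicate 2 (0.0607) or 3 (0.0691) or without replicate 1 of that group (0.0809). The call at the second region was lost in osimertinib DTP without DMSO replicate 2 (0.139) or 3 (0.101) or any osimertinib DTP library (0.091, 0.0833 and 0.125), and it was kept in the AZD5153 group (highest adjusted p = 0.0317).

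SFTPB had 1 region (chr2:85662997-85663498), of the promoter class. It lies at the start of a short transcript in the annotation and 4702 bp from the nearest RefSeq start of SFTPB. The CPM was 10.3, 7.17 and 4.98 under DMSO, 5.21, 4.82 and 2.80 in the osimertinib DTPs and 2.48, 1.27 and 2.11 in the AZD5153 libraries. All AZD5153 libraries were below all other libraries, while DMSO and osimertinib DTP overlapped. The region fell in the AZD5153 group against DMSO (-1.93 ± 0.58, adjusted p = 0.0277), and the value for osimertinib DTP against DMSO was -0.80 ± 0.55 (adjusted p = 0.391). The call was lost without DMSO replicate 1 (adjusted p = 0.11), 2 (0.0859) or 3 (0.0596) or AZD5153 replicate 1 (0.0601) or 2 (0.0983), with log2 fold changes of -2.18 to -1.65.

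NAPSA had 4 promoter regions, of which the pair at the 3′ side and the pair at the 5′ side lay on different sides of 0. At the region with the highest level (chr19:50362527-50363028), the CPM was 13.5, 31.2 and 20.01 under DMSO, 13.5, 12.5 and 9.69 in the osimertinib DTPs and 19.5, 20.6 and 5.75 in the AZD5153 libraries. The osimertinib DTP libraries were all below the lowest DMSO library, by 13.46 against 13.49 for the nearest, and the AZD5153 group overlapped with DMSO. The log2 fold changes against DMSO were -0.86 ± 0.57 (adjusted p = 0.382) and -0.49 ± 0.57 (adjusted p = 0.604), the latter -0.11 without the third AZD5153 library. At the region over a RefSeq start (chr19:50365398-50365899), the CPM was 3.06, 2.87 and 4.38 under DMSO, 3.41, 5.78 and 7.09 in the osimertinib DTPs and 5.56, 6.81 and 11.9 in the AZD5153 libraries, so that all libraries of the last group were above DMSO (1.22 ± 0.55, adjusted p = 0.135, or 0.84 without the third library).

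HOPX had 2 promoter regions, 3 regions downstream of the gene and 1 region 17318 bp from its nearest RefSeq start, upstream of the gene on the minus strand of chromosome 4. The 250 bases before the RefSeq start that lies 86 bp from a member region are shown, since H3K27ac there was low in DMSO. No base is in capitals because none of the motifs above was found.
HOPX upstream start, chr4:56681297-56681546, minus strand: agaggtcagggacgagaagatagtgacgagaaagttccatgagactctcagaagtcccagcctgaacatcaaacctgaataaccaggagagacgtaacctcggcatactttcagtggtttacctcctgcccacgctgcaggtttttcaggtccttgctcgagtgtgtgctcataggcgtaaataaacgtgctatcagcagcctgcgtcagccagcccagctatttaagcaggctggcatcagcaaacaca
The largest change of any member was at the upstream region (chr4:56698615-56699116), with 0.36, 0.72 and 0.60 CPM under DMSO, 4.27, 11.02 and 14.3 in the osimertinib DTPs and 8.15, 14.8 and 2.11 in the AZD5153 libraries. The counts behind these values were 4, 7 and 6 under DMSO, 45, 80 and 143 in the osimertinib DTPs and 82, 128 and 11 in the AZD5153 libraries, beside 9 in the input. With so few counts under DMSO, the region passed the count filter only through the drug-treated libraries. The size of its change, and its rank among the members, depend on DMSO values near the floor. All drug-treated libraries lay above all DMSO libraries, the third AZD5153 library closest to them. The region rose by 4.12 ± 0.77 (adjusted p = 0.00535) in osimertinib DTP and by 3.89 ± 0.77 (adjusted p = 0.00371) in the AZD5153 group. With 1 library left out, the call in the AZD5153 group was kept (3.20 to 4.33, highest adjusted p = 0.0296), and that in osimertinib DTP was lost only without DMSO replicate 2 (4.38, adjusted p = 0.0512).

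At the HOPX promoter region that the sequence above overlaps (chr4:56681383-56681884), the CPM was 0.81, 2.87 and 3.58 under DMSO, 4.64, 5.78 and 8.39 in the osimertinib DTPs and 4.17, 10.8 and 0.77 in the AZD5153 libraries. Every osimertinib DTP library was above every DMSO library, and the third AZD5153 library was the lowest of all 9. The log2 fold changes against DMSO were 1.37 ± 0.75 (adjusted p = 0.262) and 1.14 ± 0.74 (adjusted p = 0.316). Without the third AZD5153 library they were 1.37 (adjusted p = 0.0496) and 1.62 (adjusted p = 0.0256), and at the neighbouring promoter region (chr4:56680772-56681273) they were 2.10 (adjusted p = 0.00336) and 1.89 (adjusted p = 0.00971), beside 2.10 ± 0.69 (adjusted p = 0.057) and 1.46 ± 0.68 (adjusted p = 0.149) with it. The 3 downstream regions (chr4:56641033-56642774) were below 0 on the log2 scale in both comparisons with DMSO, at -0.87 to -0.55 and at -1.41 to -0.32, and none was called. Without the third AZD5153 library, the second set of values was -0.92, 0.19 and -0.79, so that the direction turned at chr4:56641563-56642064. At the strongest of them (chr4:56641563-56642064), the CPM was 9.98, 17.9 and 9.26 under DMSO, 9.29, 7.99 and 7.99 in the osimertinib DTPs and 11.1, 17.3 and 1.15 in the AZD5153 libraries. The groups overlapped there, whereas at the other 2 regions all drug-treated libraries were below all DMSO libraries.

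**Figure D3:**
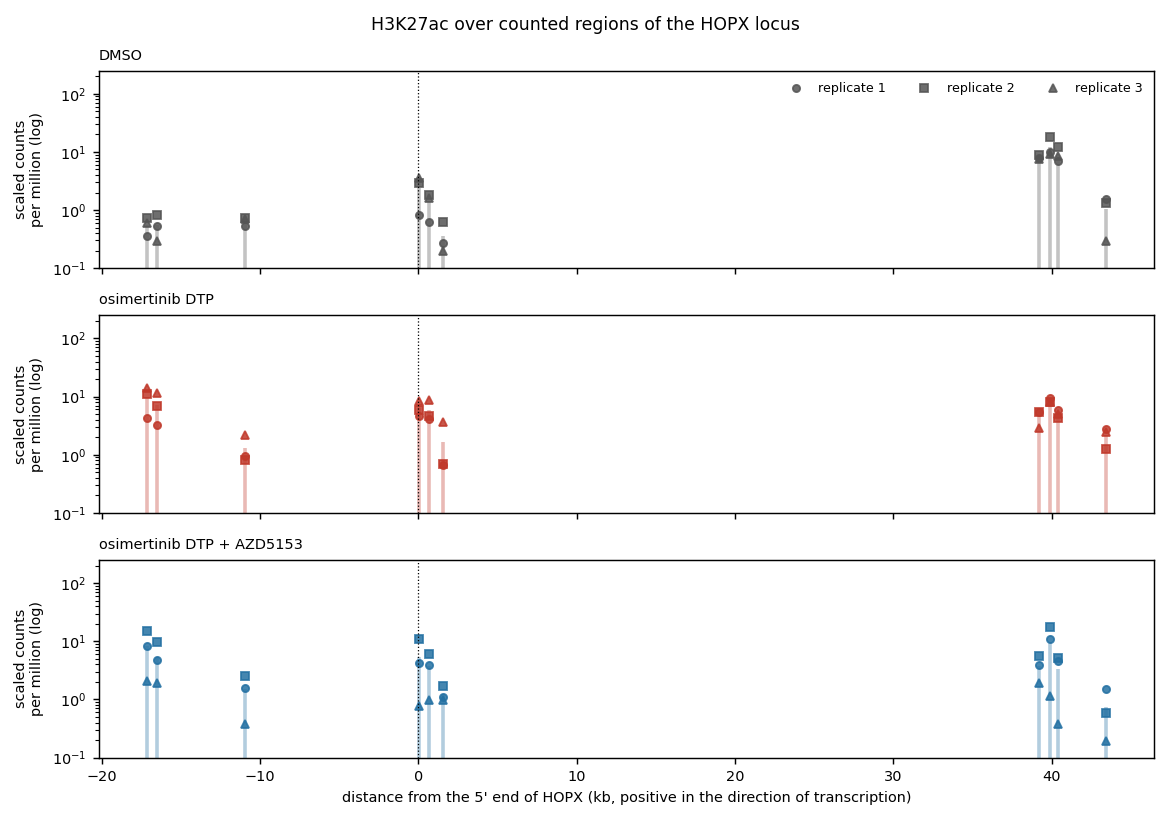
Scaled CPM (vertical log axis) of every counted region of the HOPX locus, against the distance in kb from the 5′ end of HOPX, positive in the direction of transcription. Points are libraries and bars reach the group mean (n = 3). At the left end, the upstream region is at 0.36 to 0.72 in DMSO and at 4.27 to 14.3 in osimertinib DTP, while the downstream regions at the right end overlap more between groups.

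**Figure D4:**
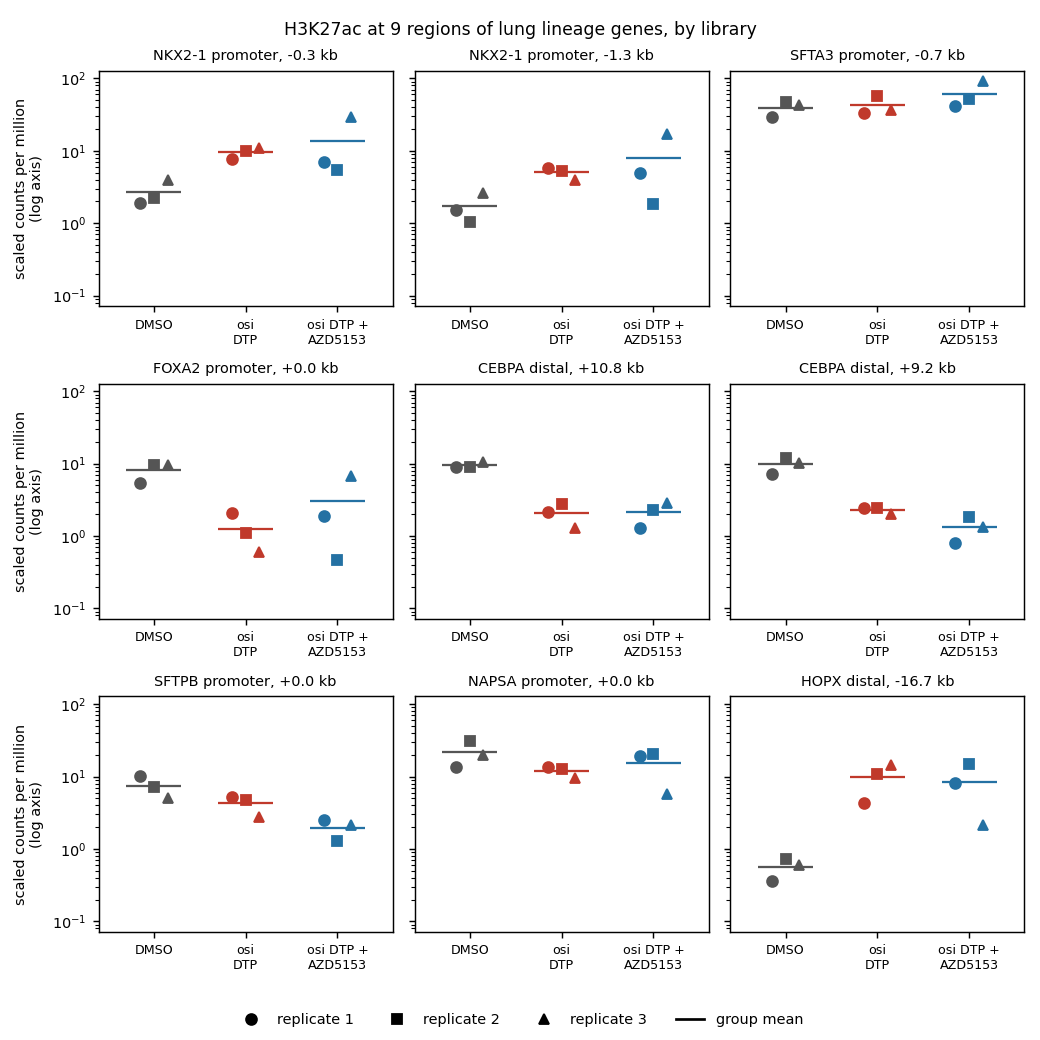
Scaled CPM (vertical log axis, shared) of 9 member regions in each library, the 7 called in any comparison and the highest of SFTA3 and of NAPSA, by group (horizontal axis). Symbols are replicates 1 to 3 and lines are group means. The HOPX region is higher in all 6 drug-treated libraries than in DMSO, the CEBPA regions are lower in all 6, and at the FOXA2 start region the third AZD5153 library lies in the DMSO range.

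Adding AZD5153 after osimertinib changed no member region past the threshold. The lowest unadjusted p was 0.065, at the SFTPB region (-1.12 ± 0.57 in the AZD5153 group against osimertinib DTP). The next were 0.0865 at the SFTA3 region chr14:36476847-36477348 (-1.17 ± 0.64) and 0.141 at chr14:36479159-36479660 (-1.04 ± 0.68). Over the 39 regions the log2 fold change ran from -1.17 to 1.19, and 24 were above 0 and 15 below. The SFTPB region and the CEBPA region at chr19:33292849-33293350 (-0.80 ± 0.58) were the 2 at which the groups did not overlap, both with lower CPM in the AZD5153 group. The value at NKX2-1 changed sign at all 3 regions without the third AZD5153 library, to -0.50, -0.62 and -0.58. All 4 FOXA2 regions did so as well, from 0.67, 0.54, 1.19 and 0.37 to -1.08, -1.39, -0.09 and -0.80, among them the highest value above. The range over the 39 regions was then -1.39 to 0.97, and no member region was called then either, while over all regions 103 were higher and 96 lower.

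Counts were also summed per gene. TMM scaling was estimated anew on the promoter sums and on the distal sums, so their values are not on the scale of the single regions. For promoter sums, 7 members were tested among 12896 genes. None was called in osimertinib DTP against DMSO (7.3% of all genes) or in the AZD5153 group against osimertinib DTP (0% of all genes). For the AZD5153 group against DMSO, 2 of 7 were called (15.4% of all genes), FOXA2 at -2.47 ± 0.71 (adjusted p = 0.0464) and SFTPB, whose sum is its single region, at -2.24 ± 0.51 (adjusted p = 0.0194). With the scaling of the regions, the same SFTPB counts gave -1.93. The FOXA2 sum lay below each of its regions (-2.14 to -1.47). Without TMM, the FOXA2 sum was at -2.10 and not called (adjusted p = 0.139), and SFTPB was at -2.17 (adjusted p = 0.0232). The promoter sum of FOXA2 in osimertinib DTP against DMSO was -2.66 ± 0.72 (adjusted p = 0.0572). For NKX2-1 it was 1.01 ± 0.37 (adjusted p = 0.148), or 1.07 and called under the replicate block (adjusted p = 0.0328), and in the AZD5153 group against DMSO it was 1.08 ± 0.37 (adjusted p = 0.0831), or 0.66 (adjusted p = 0.147) without the third AZD5153 library. For distal sums, 3 members were tested among 8143 genes. CEBPA was called lower in osimertinib DTP, at -2.03 ± 0.48 (adjusted p = 0.00913, 34.5% of all genes called), and in the AZD5153 group against DMSO, at -2.21 ± 0.50 (adjusted p = 0.00544, 42.9% of all genes called), and it was called with any 1 library left out (highest adjusted p = 0.0443 and 0.0238). No distal sum was called in the AZD5153 group against osimertinib DTP (0% of all genes). The distal sums of SFTA3 and HOPX against DMSO were 0.04 and 0.02 in osimertinib DTP and 0.77 and -0.29 in the AZD5153 group, and without the third AZD5153 library both signs turned in each comparison, to -0.05 and -0.05 and to -0.21 and 0.02. Without the third AZD5153 library, the promoter sums of FOXA2 (-2.66, adjusted p = 0.00781) and NKX2-1 (1.01, adjusted p = 0.0372) were called in osimertinib DTP. FOXA2 was also called there without osimertinib DTP replicate 1 (adjusted p = 0.0451) or AZD5153 replicate 2 (0.0326). The FOXA2 call in the AZD5153 group was lost without DMSO replicate 1 (adjusted p = 0.076), 2 (0.108) or 3 (0.156), osimertinib DTP replicate 3 (0.0557) or AZD5153 replicate 1 (0.134) or 2 (0.0882). The SFTPB call was lost without DMSO replicate 1 (0.0653), 2 (0.0532) or 3 (0.05001) or AZD5153 replicate 2 (0.0621).

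Promoter regions held 52.4, 53.1 and 52.5% of the member counts under DMSO, 55.2, 53.2 and 53.2% in the osimertinib DTPs and 49.0, 51.7 and 46.4% in the AZD5153 group. The groups did not overlap. The differences were 1.20 percentage points for osimertinib DTP against DMSO, -4.81 for the AZD5153 group against osimertinib DTP and -3.61 for the AZD5153 group against DMSO, each with p = 0.1 in the two-sided exact permutation test, the smallest that 3 against 3 libraries allow. The last difference was -2.30 without AZD5153 replicate 3, and it turned to 1.34 when promoters were limited to 1 kb of a start. It was 3.30 for the mean of the shares of SFTA3 and HOPX, the only members with both promoter and distal regions. The other members do not enter that mean.

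The peak lists, called by the authors for each library on its own, gave a further reading of the same libraries. A peak overlapped 33 to 35 of the 39 regions under DMSO, 30 to 35 in the osimertinib DTPs and 31, 31 and 20 in the AZD5153 group. Both CEBPA regions had a peak in 3 of 3 DMSO libraries and in none of the AZD5153 libraries, and of the osimertinib DTP libraries only the first had 1, at chr19:33292849-33293350. The 4 FOXA2 regions had a peak in all DMSO libraries, in osimertinib DTP only at chr20:22582916-22583417 in the first library, and in the AZD5153 group only in the third. The HOPX upstream region and the NKX2-1 region at chr14:36522476-36522977 had a peak in 0 DMSO, 3 osimertinib DTP and 2 AZD5153 libraries. SFTPB had 1 in 3 DMSO, 2 osimertinib DTP and 0 AZD5153 libraries, and GATA6 at chr18:22170884-22171385 in 1, 3 and 3. The fold enrichment of the peak over the HOPX upstream region was 7.15, 12.9 and 17.1 in osimertinib DTP and 10.8 and 18.9 in the AZD5153 group. The length under peaks over all member loci was 32.8, 37.2 and 39.8 kb under DMSO, 35.4, 29.7 and 40.3 kb in the osimertinib DTPs and 36.5, 38.4 and 24.0 kb in the AZD5153 group. The groups overlapped (exact permutation p = 0.8 for osimertinib DTP and 0.6 for the AZD5153 group against DMSO, 0.7 between the drug-treated groups).

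**Figure D5:**
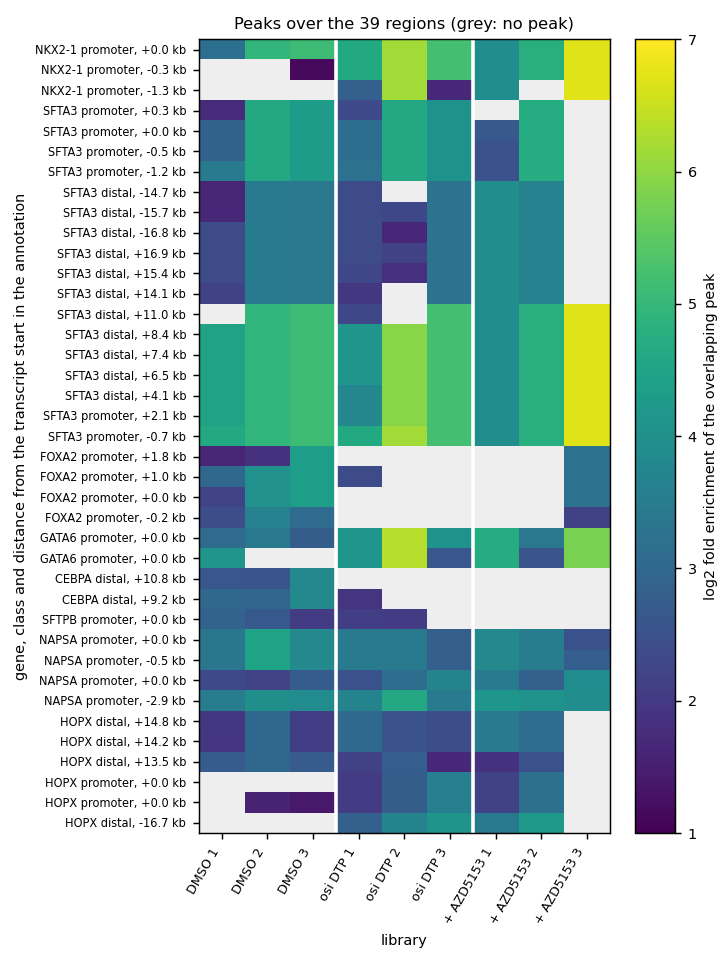
Peaks over the 39 member regions (rows, by gene, class and distance from the transcript start in the annotation) in the 9 libraries (columns). Colour is the log2 of the highest fold enrichment of any overlapping peak as deposited, and grey marks no peak. It is a value of the peak, not of the region, so regions under 1 broad peak share it. In the third AZD5153 library it is 104.714 at the NKX2-1 regions and also at the weaker SFTA3 region chr14:36501710-36502211. The FOXA2 and CEBPA rows are filled in DMSO and mostly grey in the drug-treated libraries, and the third AZD5153 library has peaks over 20 regions.

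Other genes of the lung and related lineages were read from the same gene sums, with all 9 libraries. Their calls stand beside 7.3% of all promoter sums and 34.5% of all distal sums called in osimertinib DTP, and 15.4% and 42.9% in the AZD5153 group, against DMSO. Of 12 alveolar type 2 genes, 6 had promoter regions, none was called in osimertinib DTP against DMSO, and ETV5, a transcription factor gene, was lower in the AZD5153 group (-1.35, adjusted p = 0.012). Of 8 alveolar type 1 genes, 4 had distal regions. Among their distal sums, CLIC5 (3.01, adjusted p = 0.00621) and RTKN2 (2.14, adjusted p = 0.0034) were higher and EMP2 (-1.42, adjusted p = 0.00638) was lower in osimertinib DTP, and the same held in the AZD5153 group against DMSO (2.16, 2.29 and -1.28). CLIC5 was low throughout, at 1.16, 0.46 and 0.30 CPM under DMSO, and the third AZD5153 library lay within that range at 1.02. The promoter sum of EMP2 was also lower in both (-0.96 and -0.73), and that of AKAP5 was higher in the AZD5153 group (1.74, adjusted p = 0.0191). Of 10 airway genes, 3 had promoter regions, and of these KRT5 (-3.05, adjusted p = 0.0162) and TP63 (-2.99, adjusted p = 0.0268), both of basal cells, were lower in the AZD5153 group against DMSO. Their promoter sums were at 0.45 to 1.85 and 0.23 to 2.3 CPM in the AZD5153 libraries. Distal regions were present for 3 airway genes, and none was called. The larger distal sum of TP63 overlapped, with 80.7, 77.0 and 68.6 CPM under DMSO and 55.7, 90.6 and 21.1 in the AZD5153 libraries. Of 14 other endoderm and lung factors, 7 had distal regions, and those of GRHL2 (-1.41 and -1.79) and ELF5 (-1.48 and -2.30) were lower in both comparisons with DMSO, while in the AZD5153 group the promoters of ID2 (2.22) and the distal regions of SOX9 (1.20) were higher. Of the gastric and intestinal genes, the promoters of CTSE (-2.85) and the distal regions of LGALS4 (-2.80) were lower in the AZD5153 group against DMSO. So were the promoters of POU2F3 (-2.08), which was listed with the neuroendocrine genes but is not a neuroendocrine marker. The only other gene of that list with a tested sum, CHGB, was not called at its distal regions (0.45). Among the markers of other cell types, COL1A1 was higher (1.33) and CD79A lower (-3.07) at promoters in osimertinib DTP. No gene of these lists was called in the AZD5153 group against osimertinib DTP.

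The genes whose summed counts over all their regions followed NKX2-1 most closely over the 9 libraries were NCOA1, with a Spearman correlation of 1, and MAFK, UBN2, SGSM2 and LOC145694, each with 0.983. Of 15632 genes compared, 77 were over 0.9, and the libraries share groups and depth, so this is a description of 9 points only. Among the members, the value with NKX2-1 was 0.6 for GATA6, -0.03 for SFTA3, -0.03 for HOPX, -0.48 for FOXA2, -0.52 for SFTPB, -0.6 for CEBPA and -0.7 for NAPSA. Without the third AZD5153 library, the values in this order were 0.43, 0, 0.38, -0.62, -0.43, -0.52 and -0.57.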

How the data were processed

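H3K27ac ChIP-seq was read in 9 libraries of H1975 and 1 pooled input. The authors deposited raw read counts for 169637 regions, a subset annotated with gene symbol, class and distance to a start, and 1 peak list per library with the fold enrichment as a ratio and p and q as −log10 values. The rule for the subset and the peak threshold are not given in the sources used here. The submitters' notes name BWA 0.7.17, MACS2 2.2.6, featureCounts 2.0.0, ChIPseeker 1.29.1 and hg38. The name of 1 peak list carries another cell line's name than its labels, which were followed. No member count passed 647, where 1152 is the most that 1 read per position and strand allows.

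Groups came from the labels. The members and lists were chosen with earlier results of these data known. The test was that of edgeR 4.0.16 (R 4.3.3 with limma 3.58.1), with filterByExpr, TMM and a robust quasi-likelihood fit on counts, in 1 fit of all 9 libraries over the whole table, with Benjamini-Hochberg adjustment over 157919 regions, and likewise on counts summed per gene over promoter (within 3 kb) or distal regions. The scripts were tested on simulated data. Shares and kb under peaks were compared with exact permutation tests. Alternatives were DESeq2 1.42.0, other scalings and filters, a replicate block, leaving out each library and, added after the data had been seen, library quality weights. Same-numbered osimertinib DTP and DMSO libraries deviated together (Pearson correlation 0.334, 0.355 and 0.324). For same-numbered AZD5153 libraries the values were -0.018, 0.553 and 0.362 with DMSO and 0.243, 0.026 and -0.240 with osimertinib DTP. The fit behind the calls did not pair libraries in any comparison. Pairing by number entered only through the replicate block. p-values measure the spread between replicates of 1 line. Regions were named by a rule: per gene the promoter and distal region with the highest mean, and per comparison up to 3 called regions with the largest change in each direction, or the 3 lowest p where none was called. Promoter sequences came from RefSeq (GRCh38.p14) by symbol. Of the 9 members, 8 had an entry, and FOXA2 had none.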

Additional observations from a re-analysis of the deposited data

Results flagged for a closer look

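Regions that are in the full count table but not in the annotated one were read within 20 kb of each member. There were from 1 (FOXA2) to 13 (NAPSA) such regions per member. Of all these, 1 was past the threshold, next to the HOPX upstream region at chr4:56697967-56698468. Over all regions tested, 10.7% were called in osimertinib DTP and 18.1% in the AZD5153 group against DMSO. The region adjoins a member region that was itself called, so it is not a separate locus. Its counts were 6, 8 and 3 under DMSO, 34, 50 and 115 in the osimertinib DTPs and 47, 84 and 10 in the AZD5153 libraries, beside 10 in the input, above the DMSO level in each drug-treated library. Here too the size of the change depends on DMSO counts near the floor. The log2 fold change was 3.67 (adjusted p = 0.0075) in osimertinib DTP and 3.28 (adjusted p = 0.00736) in osimertinib DTP + AZD5153 against DMSO. Why it was left out of the annotated table was not tested.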

How the results depend on the processing

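Of the 39 member regions, osimertinib DTP against DMSO called 4, and 8 with DESeq2, 11 with both groups fitted alone, 11 with library quality weights, 1 at an adjusted p of 0.01 and 0 to 11 with 1 library left out. The AZD5153 group against DMSO called 6, and under these settings 7, 3, 14, 2 and 2 to 10. Against osimertinib DTP it called 0 under every setting run. Of the promoter sums, osimertinib DTP called 0, and 1 with DESeq2, with both groups alone or under the replicate block, 2 with quality weights and 0 to 2 with 1 library left out. The AZD5153 group called 2 against DMSO, and 3 with DESeq2, 1 without TMM, with both groups alone or with promoters within 1 kb, 0 at an adjusted p of 0.01 and 0 to 2 with 1 library left out. Of the distal sums it called 1, and 2 with promoters within 1 kb. The replicate block gave 3, 0 and 5 called regions in the comparisons of osimertinib DTP with DMSO, of the AZD5153 group with osimertinib DTP and of the AZD5153 group with DMSO, and in osimertinib DTP it changed no call of a named region or tested sum of NKX2-1, FOXA2 and SFTPB other than those given above. In the AZD5153 group against DMSO, the NKX2-1 promoter sum was called under the block (adjusted p = 0.0177), and the calls of the FOXA2 promoter sum (0.0524) and of the NKX2-1 region at 36522476 (0.0687) were lost. The promoter share moved from 1.20 to 4.30 (within 1 kb) and 9.27 (mean of SFTA3 and HOPX alone) percentage points in osimertinib DTP, and from -3.61 to 1.34 and 3.30 in the AZD5153 group against DMSO. With 1 library left out, kb under peaks ranged from -4.06 to 1.24, from -4.85 to 2.32 and from -6.31 to 0.86 in the same comparisons. The cause of these moves was not tested, other than that fewer libraries or regions entered the fits.

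Values of named regions without a call that changed sign were as follows. In osimertinib DTP against DMSO, SFTA3 at 36505305 was at -0.094 with a loess offset and -0.18 with quality weights (-0.28 to 0.66 with 1 library left out), SFTA3 at 36514516 at -0.017 with DESeq2, -0.012 without TMM, -0.17 with loess and -0.089 with weights (-0.13 to 0.34), and SFTA3 at 36476847 at -0.56 to 0.19 with 1 left out. In the AZD5153 group against osimertinib DTP, the NKX2-1 regions were at -0.10, -0.40 and -0.41 with weights (-0.50 to 0.78, -0.62 to 0.88 and -0.58 to 1.08 with 1 left out), FOXA2 at 22582916 at -0.073 under the block and -1.12 with weights (-1.39 to 1.06), FOXA2 at 22583952 at -0.094 to 1.72, and SFTA3 at 36505305 at -0.34 to 1.17. There GATA6 at 22170884 was at -0.064 without TMM, -0.037 without the filter and -0.33 with weights (-0.92 to 0.63), CEBPA at 33291199 at -0.11, -0.019 and -0.23 (-0.26 to 0.30), HOPX at 56641563 at -0.14 under the block (-0.42 to 0.75), HOPX at 56681383 at -1.28 to 0.25 and HOPX at 56698615 at 0.35 with weights (-0.91 to 0.22). In the AZD5153 group against DMSO, SFTA3 at 36505305 was at -0.041 and HOPX at 56641563 at 0.17 with weights (-0.048 to 1.20 and -0.98 to 0.19), and GATA6 at 22170884 at -0.026 to 1.82. Counts fell to 2 in a library at some FOXA2 and HOPX regions, which limits the precision there.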

Other observations

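On the far side of SFTPB, 2 distal regions assigned to GNLY (chr2:85680615-85681651) were also low in the drug-treated groups, at -2.18 (adjusted p = 0.0211) and -1.63 (adjusted p = 0.0914) in osimertinib DTP and -2.68 (adjusted p = 0.00605) and -1.92 (adjusted p = 0.0385) in osimertinib DTP + AZD5153 against DMSO. These were named after their values had been seen.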
